A study of Mus musculus with 6 samples.

Results

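Genes of voltage-gated and potassium channels were measured in pancreas of mouse embryos at E13.5, as rows of the count files whose symbol follows the naming of these families: potassium channel subunits (Kcn), sodium channel subunits (Scn) and voltage-gated calcium channel subunits (Cacn), except Kcnj8 and Kcnj11. The rule found 131 members among 23337 gene symbols, namely 91 potassium channel genes, 13 sodium channel genes, 26 calcium channel genes and the noncoding transcript Kcnq1ot1, which shares its name with a channel gene and is no channel. In all, 6 libraries of the NMRI strain were compared. The 3 control pools came from wildtype embryos, and the 3 mutant pools came from embryos labelled Prox1-nullyzygous, with the alleles written Prox1 GFPCre/D; the labels do not explain D. The targeted gene encodes a homeobox transcription factor. Each library was made from 5 to 6 pancreata pooled within a genotype, so single embryos cannot be told apart, and no label says that equal pool numbers share a litter or a day. In bulk samples of this kind, fewer cells of a type and less RNA per cell cannot be told apart.

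Voltage-gated channels open when the membrane potential changes and let potassium, sodium or calcium ions pass. Pore-forming subunits carry the ions, and auxiliary subunits set gating and the amount of channel at the surface. Sodium and calcium channels depolarise neurons, muscle and endocrine cells, and calcium entry triggers hormone release. Potassium channels repolarise these cells, while tandem pore-domain and inward rectifier channels set the resting potential, also in epithelia and vessels.

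Total counts lay between 16060424 and 17633867 reads, so that 1 CPM (reads of a gene scaled to library size, with the TMM method of edgeR) stood for 15.9 to 17.5 reads. The targeted gene Prox1 stood at 105.3, 102.8 and 106.6 CPM in the control pools and at 83.6, 104.5 and 91.7 CPM in the mutant pools, and the labels do not give the deleted part, so these counts do not check the genotype. Defining pancreatic genes were present in every pool, with Pdx1 between 33.6 and 51.4 CPM and Cpa1 between 885.1 and 1990 CPM. Control pool 3 and mutant pool 1 held almost no Xist, at 0.526 and 0.126 CPM. Single pools also differed in other cell types: markers of skeletal and heart muscle summed to 201.4 CPM in mutant pool 2 against 6.1 to 29.8 CPM elsewhere, and the neuron markers were highest in control pool 3 (640.9 CPM, against 385.5 to 512.4 CPM elsewhere).

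Of the 131 members, 93 passed the filter on low counts and were tested with the quasi-likelihood test of edgeR over 14687 genes. A gene was called changed at a Benjamini-Hochberg adjusted p under 0.05 over all of these genes. The test called 12 members (12.9% of those tested), 5 higher and 7 lower in mutants, where 7.95% of all tested genes were called, 3.67% higher and 4.28% lower. The lower members were Kcnk16, Kcnk10, Kcnh6, Kcnh2, Kcnmb1, Scn3a and Cacna1a. The higher members were Kcna2, Kcna1, Kcnip4, Kcne3 and Kcnk5. Potassium channel genes held 10 of the calls (5 higher and 5 lower among 63 tested), sodium channel genes 1 of 11 and calcium channel genes 1 of 18.

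The members did not shift as a whole. Their median log2 fold change (mutant minus control) was 0.03 against 0.00055 over all genes tested, and 49 of the 93 were above 0. Control and mutant pools did not overlap for 31 tested members (33.3%, against 26.4% of all genes tested), 16 higher and 15 lower, and 19 of these were not called. Summed over all channel genes without Kcnq1ot1, the control pools held 1237 ± 67.1 CPM (SD, n = 3) and the mutant pools 1199 ± 6.07 CPM. With single libraries left out, between 8 and 17 members were called. Higher calls dropped to 3 when control pool 1, mutant pool 1 or mutant pool 2 was left out and to 1 when control pool 3 was left out. Lower calls stayed between 6 and 10.

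**Figure D1:**
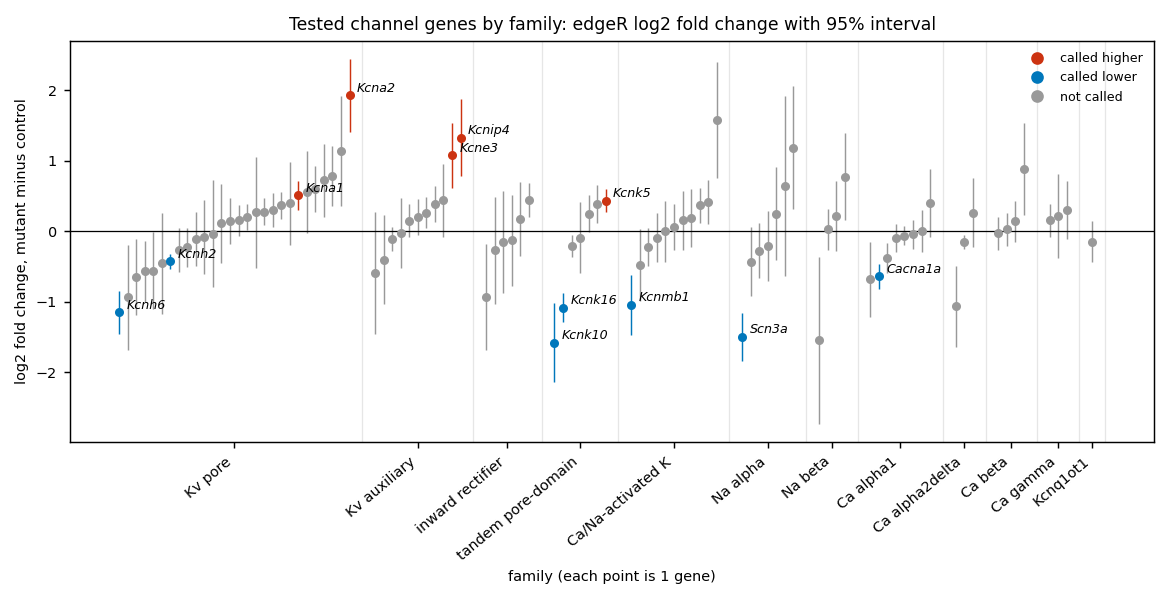
Each point is 1 of the 93 tested members, grouped by family on the horizontal axis, with its edgeR log2 fold change (mutant minus control) on the vertical axis. Bars are 95% intervals, and colours mark the 5 members called higher, the 7 called lower and the 81 not called; potassium channel families hold points in both directions.

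The promoters of Kcnk16, Kcnk5 and Kcnh6 are shown: Kcnk16 and Kcnk5 are neighbours on chromosome 14 with opposite calls, and Kcnh6 had a lower call that held with each library left out. Each run is the 250 bases before the RefSeq transcript start (GRCm38.p6), read 5′ to 3′ on the gene's own strand. Capitals mark letters found on either strand. They mark the E-box CAGATG, known from binding sites of bHLH factors, which include regulators of endocrine development. They also mark the GC box, spelled GGGCGG, which is known from binding sites of Sp family factors. The TATA box, spelled TATAAA, was searched as well. RE1, the element bound by the repressor Rest, was searched by its left part, TTCAGCACC, and by its right part, spelled GGACAGC. None of the motif matches shown overlap.
Kcnk16, chr14:20269270-20269519, minus strand: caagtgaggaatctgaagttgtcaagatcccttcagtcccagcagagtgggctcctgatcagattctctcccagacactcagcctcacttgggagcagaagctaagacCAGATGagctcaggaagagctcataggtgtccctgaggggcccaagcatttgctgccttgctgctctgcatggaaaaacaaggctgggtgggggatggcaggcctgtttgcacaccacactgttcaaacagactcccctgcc
Kcnk5, chr14:20181783-20182032, minus strand: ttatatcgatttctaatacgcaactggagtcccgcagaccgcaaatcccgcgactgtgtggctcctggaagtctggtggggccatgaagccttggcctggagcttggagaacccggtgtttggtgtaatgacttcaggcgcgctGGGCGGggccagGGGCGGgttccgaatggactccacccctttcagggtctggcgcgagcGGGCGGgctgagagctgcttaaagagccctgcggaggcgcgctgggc
Kcnh6, chr11:106007898-106008147, plus strand: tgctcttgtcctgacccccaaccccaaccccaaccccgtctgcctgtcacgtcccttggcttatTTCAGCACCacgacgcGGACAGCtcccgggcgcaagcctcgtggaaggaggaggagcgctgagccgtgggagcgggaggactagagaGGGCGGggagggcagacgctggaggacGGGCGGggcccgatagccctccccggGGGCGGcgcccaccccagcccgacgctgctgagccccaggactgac
The window of Kcnk16 holds 1 E-box, that of Kcnk5 holds 3 GC boxes, and that of Kcnh6 holds 3 GC boxes and both RE1 parts. Among all 32851 promoter windows of this length, 14.4% hold the E-box, 32.7% the GC box, 12.4% the TATA box, 0.301% the left and 5.28% the right RE1 part. The 132 windows of the 97 members with an entry held the E-box in 14.4%, the GC box in 43.2%, the TATA box in 3.03%, the left RE1 part in 0.758% and the right part in 8.33%. The left RE1 part was in 1 of these windows, that of Kcnh6 itself, so its share says nothing on other members. The 11 windows with the right part also include that of Kcnh6. The RE1 parts were searched after the Kcnh6 sequence had been seen, and a match is a description of letters and not a site.

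Among the tandem pore-domain channels, which carry background potassium current, 3 of 7 tested members were called, where 7.95% of all tested genes were. Kcnk16 and Kcnk10 fell and Kcnk5 rose. A family of 7 tested genes is too small to read its share as a result on the family. Kcnk16 (ENSMUSG00000023387.8, chr14:20261376-20269199, GRCm38) encodes a background potassium channel known from islet cells. It stood at 30.7, 28.7 and 34.8 CPM in the control pools and at 13.0, 15.7 and 15.7 CPM in the mutant pools. All control pools lay above all mutant pools, and the log2 fold change was -1.08 (SE 0.105, edgeR adjusted p = 0.000635), a 2.12-fold decrease. The call held with each library left out. Per kb of exon, Kcnk16 was the fourth most abundant channel gene of the control pancreas, at 13.2 ± 1.32 CPM per kb (SD, n = 3), and it reached 6.23 CPM per kb in mutants.

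Kcnk10 (chr12:98429437-98578310) encodes a mechanosensitive and lipid-sensitive member of the same family. Its levels were 2.99, 2.38 and 2.69 CPM in the control pools against 0.755, 1.30 and 0.629 CPM in the mutant pools. The groups did not overlap, with a log2 fold change of -1.58 (SE 0.288, edgeR adjusted p = 0.0116). Leaving out control pool 1 ended the call (edgeR adjusted p = 0.0524). Kcnk5 (chr14:20140057-20181809) encodes an acid-sensitive background channel of epithelia, and its start lies 87.4 kb from that of Kcnk16. It stood at 22.1, 20.7 and 20.3 CPM in controls and at 25.5, 29.6 and 29.98 CPM in mutants. Every mutant pool was above every control pool, by a log2 fold change of 0.43 (SE 0.0833, edgeR adjusted p = 0.0151). By edgeR, Kcnk5 was no longer called when control pool 3 (adjusted p = 0.0545), mutant pool 2 (0.0712) or mutant pool 3 (0.0665) was left out. Kcnk1, a weak background channel and the channel gene highest per kb of exon in controls (23.2 ± 1.40 CPM per kb, SD, n = 3), was not called at -0.21 (95% interval -0.37 to -0.06). Kcnk3, an acid-sensitive channel, was not called at 0.39 (edgeR adjusted p = 0.142), but was called without mutant pool 3 (log2 fold change 0.53, adjusted p = 0.0345).

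Pore subunits of voltage-gated potassium channels showed 2 higher and 2 lower calls among 28 tested (14.3%, against 7.95% of all genes tested). Both lower genes belong to the ERG family, whose current repolarises heart, neurons and endocrine cells. Kcnh6 (chr11:106008124-106034549) stood at 11.2, 9.38 and 7.95 CPM in the control pools and at 4.15, 4.30 and 4.41 CPM in the mutant pools. The mutant pools were tightly grouped below all controls, with a log2 fold change of -1.15 (SE 0.154, edgeR adjusted p = 0.00289). Kcnh2 (chr5:24319589-24351604), the main ERG gene of the heart, was more abundant at 59.6, 64.1 and 58.4 CPM in controls and 44.6, 45.1 and 45.6 CPM in mutants. Its decrease was smaller but did not overlap either, with a log2 fold change of -0.43 (SE 0.0552, edgeR adjusted p = 0.00247). Both calls held with each library left out. Of the other Kcnh genes tested, Kcnh1, Kcnh3, Kcnh5, Kcnh7 and Kcnh8 were not called, and Kcnh1, a gene of the EAG type, was called without control pool 2 (log2 fold change -0.38, edgeR adjusted p = 0.0403).

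The higher pore subunits were Kcna2 and Kcna1, which encode Shaker-type delayed rectifiers best known from axons. Kcna2 (chr3:107101146-107115005) had the largest increase of any tested member: 0.896, 0.914 and 1.64 CPM in control pools and 3.84, 4.24 and 5.09 CPM in mutant pools. These levels rest on 15, 15 and 28 reads in controls and 61, 72 and 89 reads in mutants, and the log2 fold change was 1.93 (SE 0.264, edgeR adjusted p = 0.0032). The call held with each library left out. Kcna1 (chr6:126640397-126646384) stood at 9.55, 8.34 and 9 CPM in controls and at 13.1, 11.9 and 13.2 CPM in mutants, again without overlap (log2 fold change 0.51, SE 0.104, edgeR adjusted p = 0.0194). Leaving out control pool 3 (edgeR adjusted p = 0.0542), mutant pool 1 (0.0603) or mutant pool 3 (0.0701) ended the Kcna1 call. The genes next to them in the Kcna clusters were not called: Kcna3, 65.0 kb from Kcna2, changed by -0.03 (95% interval -0.80 to 0.73), Kcna5 by 0.20 (0.01 to 0.39) and Kcna6 by 0.15 (-0.07 to 0.37). Kcna6 shares 39.6% of its exon length with a gene on the opposite strand, and without a stated strand setting the reads of the pair cannot be told apart.

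The pore subunit genes Kcnd3, Kcnd1 and Kcnc2 lay just short of the threshold. Kcnd3, an A-type channel of heart and neurons, stood at 21.2 ± 1.82 CPM (SD, n = 3) in controls and 27.4 ± 2.82 CPM in mutants (edgeR adjusted p = 0.0539), and was called without control pool 2 (0.0467) or mutant pool 1 (0.0356), by DESeq2 (0.0366) and by robust edgeR (0.044). The related gene Kcnd1 (0.60, SE 0.166) and the fast-spiking channel gene Kcnc2 (0.78, SE 0.219) had no overlap between groups and were not called (edgeR adjusted p = 0.0629 and 0.0662), and Kcnc2 was called without mutant pool 3 (0.0386). Kcns3, a silent modifier subunit, had mutant pool 3 (1.14 CPM) inside the control range (0.643 to 1.16 CPM) and was not called (log2 fold change 1.14, edgeR adjusted p = 0.131). Without that pool Kcns3 was called (1.45, edgeR adjusted p = 0.0458). Kcnq1, the slow delayed rectifier of heart and of secretory epithelia, stood at 18.1, 10.5 and 19.0 CPM in control pools and at 12.3, 11.0 and 8.81 CPM in mutant pools. Control pool 2 fell within the mutant range, and Kcnq1 was not called with it (log2 fold change -0.57, edgeR adjusted p = 0.167) and called without it (-0.80, adjusted p = 0.00893). Kcnq1ot1, the imprinted transcript from the opposite strand of that locus, was not called at -0.15 (95% interval -0.44 to 0.14), and shares 121 exon bases with Kcnq1.

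**Figure D2:**
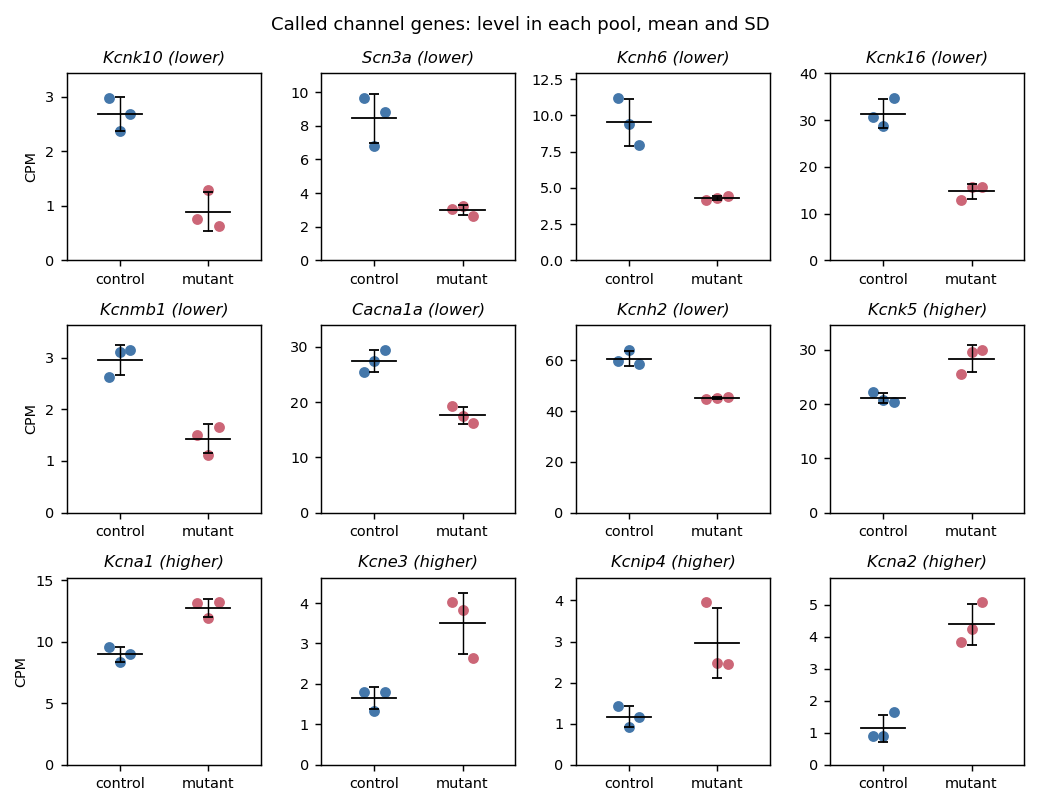
CPM of the 12 called members, 1 panel per gene, with 1 point per pool in control (blue) and mutant (red), a line at the mean and a bar of 1 SD over 3 pools. The vertical axes start at 0 and differ between panels; no panel has a control pool within the mutant range, and Kcna2 moves from 0.896 to 1.64 CPM in controls to 3.84 to 5.09 CPM in mutants.

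Auxiliary subunits of the voltage-gated potassium channels had 2 of 11 tested members called, both higher (18.2%, against 7.95% of all genes tested). Kcnip4 (chr5:48389502-49524907), a calcium sensor that binds A-type channels, stood at 1.43, 0.914 and 1.17 CPM in controls and 3.96, 2.47 and 2.46 CPM in mutants. Mutant pool 1 was the highest, the groups did not overlap, and the log2 fold change was 1.33 (SE 0.281, edgeR adjusted p = 0.0223). Without control pool 1 the edgeR adjusted p of Kcnip4 was 0.0501, without control pool 3 it was 0.0655 and without mutant pool 1 it was 0.0644. Kcne3 (chr7:100176502-100184869), the partner of Kcnq1 in intestinal epithelium, stood at 1.79, 1.34 and 1.81 CPM in controls and 4.02, 3.83 and 2.63 CPM in mutants. The increase, without overlap, was 1.08 on the log2 scale (SE 0.237, edgeR adjusted p = 0.0259). By edgeR, Kcne3 was called with mutant pool 3 left out, but not with control pool 1 (adjusted p = 0.0736), control pool 2 (0.0581), control pool 3 (0.0571), mutant pool 1 (0.0866) or mutant pool 2 (0.0989) left out. The auxiliary gene highest per kb of exon was Kcne1l, an X-linked subunit, at 18.4 ± 0.850 CPM (SD, n = 3) in controls and 17.1 ± 1.27 CPM in mutants. Kcne1l was not called (95% interval of the log2 fold change -0.28 to 0.06), nor was Kcnip1 (-0.52 to 0.47).

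Among the calcium- or sodium-activated potassium channel genes, 1 of 11 tested members was called (9.09%, near the 7.95% of all genes tested). Kcnmb1 (chr11:33963013-33973641), the accessory subunit of the large-conductance channel in smooth muscle, stood at 2.63, 3.11 and 3.16 CPM in controls and at 1.51, 1.12 and 1.66 CPM in mutants. All mutant pools were lower (log2 fold change -1.05, SE 0.22, edgeR adjusted p = 0.0213). Leaving out control pool 1 (edgeR adjusted p = 0.0502), control pool 3 (0.067), mutant pool 1 (0.0574) or mutant pool 2 (0.0862) ended the Kcnmb1 call. Of the smooth muscle and pericyte markers, 2 of 10 were called higher and 0 lower, and their summed level was 728.4 to 1003 CPM in controls and 938.4 to 944.8 CPM in mutants. Control pool 2 set the 1003 CPM and stood apart for some contractile smooth muscle genes. Myh11 was at 73.6 CPM there against 2.16 to 6.54 CPM in the other pools, and Cnn1 at 9.81 against 0.292 to 1.32 CPM. Acta2 was also highest there, at 94.5 CPM against 22.3 to 58.0 CPM. Tagln was not, at 21.6 CPM there and 25.1 CPM in mutant pool 1. The part of this pool's smooth muscle in the channel results was not tested. Kcnma1, the pore subunit that Kcnmb1 binds, was not called at -0.22 (95% interval -0.49 to 0.05). Kcnn3, a small-conductance channel gene, stood at 32.9 ± 6.08 CPM (SD, n = 3) in controls and at 42.4 ± 3.995 CPM in the mutant pools; it was not called, but was without control pool 2 (log2 fold change 0.50, edgeR adjusted p = 0.0262) and by DESeq2 (adjusted p = 0.0486).

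Kcnn4 encodes the intermediate-conductance channel of red blood cells and epithelia. It stood at 0.836, 1.22 and 0.643 CPM in controls and at 4.40, 1.83 and 1.89 CPM in mutants. Mutant pool 1 was the highest, the groups did not overlap, and Kcnn4 was not called (log2 fold change 1.58, SE 0.418, edgeR adjusted p = 0.054), but was called without control pool 2 (1.85, adjusted p = 0.0472). Kcnn4 was also called by DESeq2 (adjusted p = 0.0129), by robust edgeR (0.0476) and by edgeR with no filter on low counts (0.0442). Of the erythroid markers, 5 of 10 were called higher in mutants and 0 lower, where 7.95% of all tested genes were called. The summed level of the erythroid list, most of it globin, was 1456 to 2312 CPM in controls and 1659 to 2427 CPM in mutants, and the part of these cells in the Kcnn4 values was not tested.

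Of 13 inward rectifier genes 6 were tested, and edgeR with its default estimation and limma voom called 0 of them. In the edgeR fit 2 had an unadjusted p under 0.05. Kcnj2 was called by DESeq2 (adjusted p = 0.0368) and by robust edgeR (0.0485). Kcnj2, the main resting rectifier of muscle and vessels, was the highest of them per kb of exon, at 2.58 CPM per kb in controls. It stood at 14.99, 12.7 and 14.5 CPM in controls and 22.3, 18.03 and 17.05 CPM in mutants. The groups did not overlap, and it was not called (log2 fold change 0.44, SE 0.12, edgeR adjusted p = 0.0596). Kcnj5, a subunit gated by G proteins, was not called at -0.15 (95% interval -0.87 to 0.56). Kcnj6, its relative, was not tested, with 2 reads in each control pool and 0, 0 and 1 reads in the mutant pools. The 4 genes of the ATP-sensitive potassium channels, which lie outside the rule, were all called: Kcnj11 (-0.85) and Abcc8 (-1.04) lower, Kcnj8 (0.64) and Abcc9 (0.64) higher.

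Sodium channel genes drive fast action potentials. Of these, edgeR called 1 of 7 tested alpha subunit genes and 0 of 4 beta subunit genes, against 7.95% of all genes tested. Of the beta genes, 2 had an unadjusted p under 0.05, and DESeq2 and limma voom called 0. Scn3a (chr2:65457118-65567627), the alpha subunit gene typical of embryonic neurons and also present in islet cells, stood at 9.67, 6.82 and 8.82 CPM in controls and at 3.08, 3.24 and 2.63 CPM in mutants. Every control pool lay above every mutant pool, and the log2 fold change was -1.499 (SE 0.176, edgeR adjusted p = 0.00144), a 2.83-fold decrease. The call held with each library left out. Scn8a (-0.28, 95% interval -0.66 to 0.11) and Scn9a (-0.43, -0.92 to 0.06), alpha subunits of neurons, were not called. Scn7a, an atypical sodium channel gene of glia and other non-neuronal cells, stood at 6.35 CPM in mutant pool 1 and between 1.29 and 2.71 CPM in the other pools, and was not called. Scn2b, the most abundant sodium channel gene per kb, was not called at 0.02 (-0.26 to 0.31).

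Among calcium channel genes, 1 of 18 tested was called (5.56%, against 7.95% of all genes tested), and it forms a pore. Cacna1g and Cacna1h encode alpha1 subunits of the T type, which open at low voltage. Cacna1g stood at 160.6 ± 26.2 CPM (SD, n = 3) in controls against 155.7 ± 9.75 CPM in mutants, and Cacna1h at 110.1 ± 17.5 against 102.9 ± 4.52 CPM. Neither was called, and the 95% intervals of their log2 fold changes ran from -0.25 to 0.16 and from -0.29 to 0.10. Cacna1d, an L-type gene of endocrine cells, was not called at -0.07 (-0.20 to 0.07). Cacna1a (chr8:84388440-84640246), the P/Q-type gene of nerve terminals that is also used in insulin secretion, was the called member. It stood at 25.5, 27.5 and 29.5 CPM in controls and 19.2, 17.5 and 16.1 CPM in mutants, with no overlap (log2 fold change -0.64, SE 0.0904, edgeR adjusted p = 0.00358), and the call held with each library left out. Cacna1c, the L-type gene of heart and smooth muscle, stood at 32.5, 40.3 and 29.6 CPM in controls and 24.9, 27.5 and 26.0 CPM in mutants. It was not called (log2 fold change -0.38, SE 0.11, edgeR adjusted p = 0.0698), but was called without control pool 3 (-0.48, adjusted p = 0.0307) and by DESeq2 (adjusted p = 0.0254).

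Accessory calcium channel subunits had 0 calls by edgeR, DESeq2 or limma voom among 3 alpha2delta, 4 beta and 3 gamma genes tested, of which 2, 1 and 0 had an unadjusted p under 0.05 by edgeR. Cacna2d1, which raises surface expression of the pore, stood at 100.7 ± 4.32 CPM (SD, n = 3) in controls against 90.6 ± 3.26 CPM in mutants. It was not called (log2 fold change -0.15, SE 0.0504, edgeR adjusted p = 0.111), but was with control pool 2 left out (-0.19, adjusted p = 0.0352). Cacna2d4 had 22, 21 and 22 reads in control pools and 7, 10 and 14 reads in mutant pools, and no call was made (-1.07, SE 0.295, edgeR adjusted p = 0.0627). The intracellular beta subunit genes Cacnb3 (0.03, 95% interval -0.20 to 0.26) and Cacnb2 (0.14, -0.15 to 0.43), the alpha2delta gene Cacna2d2 (0.26, -0.23 to 0.75) and the gamma gene Cacng7 (0.15, -0.08 to 0.38) were not called.

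Per kb of exon, 7 members reached 10 CPM per kb in controls: Kcnk1, Cacnb3, Cacna1g, Kcnk16, Kcnh2, Kcne1l and Cacna1h, in that order. Cacnb3 (17.4 ± 3.38 CPM per kb, SD, n = 3) and Cacna1g (15.8 ± 2.58) did not differ beyond their spread, nor did Kcnk16 (13.2 ± 1.32) and Kcnh2 (12.5 ± 0.624). Of these 7 genes, Kcnk16 and Kcnh2 were the called ones. Kcnk5 and Kcna5, at 6.19 and 5.18 CPM per kb in controls, reached 8.33 and 5.96 CPM per kb in mutants.

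**Figure D3:**
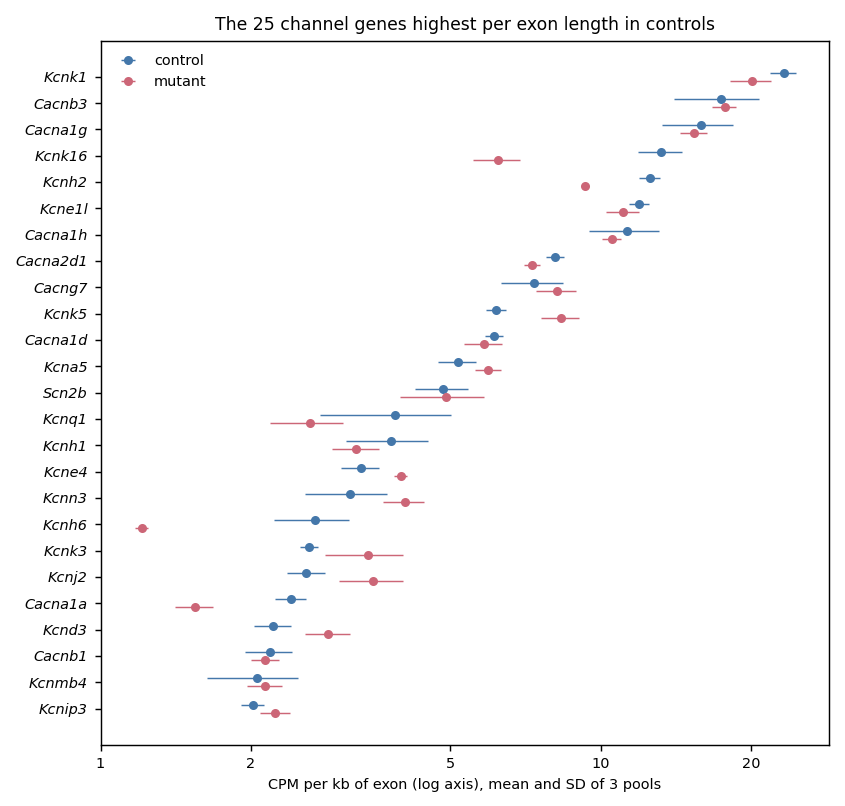
Levels of the 25 channel genes highest per exon length, in CPM per kb of exon on a log axis, with 1 point per group for the mean and a bar of 1 SD over 3 pools. Kcnk16 and Kcnh6 stand apart in the plot, with mutant means of 6.23 and 1.21 CPM per kb against control means of 13.2 and 2.68 CPM per kb.

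Markers of cell types were also compared between controls and mutants. Over all genes tested, edgeR called 7.95%. Endocrine cell markers were lower in mutants (15 of 19 called lower, 0 higher, median log2 fold change -0.75), with summed levels of 2329 to 3032 CPM in controls and 1618 to 1729 CPM in mutants. Log2 fold changes of these markers ran from -2.28 to -0.13. Those of the neuron markers ran from -4.10 to 0.15 and those of the hepatocyte markers from -3.16 to -0.52. Which cell type a channel gene came from was not tested. Of the neuron markers, 5 of 16 were called lower and 0 higher, with a median log2 fold change of -0.92. Their summed levels were 451.7 to 640.9 CPM in controls and 385.5 to 451.7 CPM in mutants. Hand2 was the largest part of these sums, at 163.8 ± 17.7 CPM (SD, n = 3) in controls and 167.4 ± 21.7 CPM in mutants. Among mesenchyme markers, 2 of 10 were called higher and 0 lower, and their sums were 8696 to 8954 CPM in controls and 9694 to 11106 CPM in mutants, above the controls in every pool. The collagen genes Col3a1, Col1a2 and Col1a1 were the largest parts of these sums, at control means of 3414, 2108 and 1806 CPM. Pdgfra, Vim and Tcf21 overlapped between groups, and log2 fold changes of the list ran from -0.18 to 0.64. Of the remaining lists, glia and neural crest had 1 of 9 called higher and 1 lower, acinar genes 1 of 8 lower, and progenitor and duct genes 1 of 9 higher and 3 lower. Hepatocyte genes had 5 of 7 called lower and 0 higher, with a median log2 fold change of -1.06. Their sums were 725.3 to 947.3 CPM in controls and 344.6 to 405.2 CPM in mutants. Ambp, Ttr and Rbp4 were the largest parts of these sums, at control means of 316.6, 305.3 and 105.6 CPM, while Alb stood at 3.79 CPM. The presence of liver cells in the pools was not tested. By edgeR, 0 were called among 4 mesothelium, 8 endothelium, 8 macrophage and 6 muscle markers, of which 2, 3, 1 and 0 had an unadjusted p under 0.05. DESeq2 called 1 mesothelium marker and 0 in the other lists, and limma voom called 0. No marker list had a gene at 0 in all libraries, and the part of these cell types in the channel results was not tested.

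Some members were high in single pools, and these examples were chosen after their values were seen. Scn3b, a sodium channel beta subunit gene, stood at 9 CPM in control pool 3 and between 0.943 and 3.11 CPM in the other pools, and it was not called (log2 fold change -1.55, SE 0.604, edgeR adjusted p = 0.177). Cacng3 and Kcnk9, genes of neurons, had 16 and 12 reads in control pool 3 and at most 2 reads in any other pool. Control pool 3 was also the highest pool for the neuron markers. Scn4a and Cacna1s, the sodium and calcium channel genes of skeletal muscle, were highest in mutant pool 2, at 1.89 and 1.65 CPM, the pool with 75.9% of the summed muscle markers. Cacna1s was nearly as high in control pool 2, at 1.46 CPM (24 reads against 28), where the muscle markers had 11.2% of their sum.

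**Figure D4:**
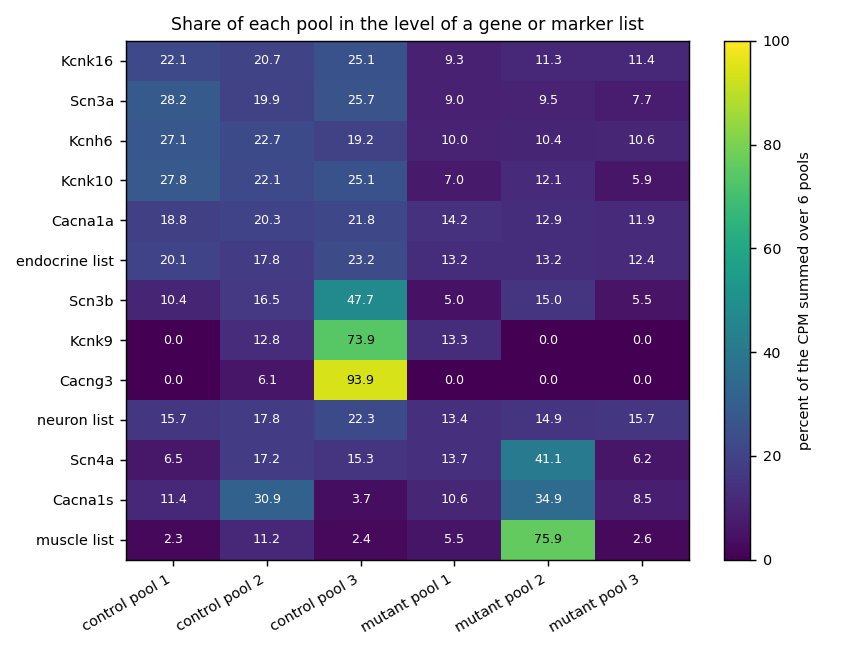
Each row is a channel gene or a summed marker list and each column a pool, and the number is the percent of the CPM summed over the 6 pools. Kcnk16, Scn3a, Kcnh6, Kcnk10, Cacna1a and the endocrine list are higher in all 3 control columns, whereas Cacng3 has 93.9% of its level in control pool 3 and Scn4a has 41.1% in mutant pool 2. Those first genes were picked from the members called lower, so their pattern was known beforehand. Kcnh2 and Kcnmb1, also called lower, are not shown. The hepatocyte list, not shown either, was also higher in all control pools (725.3 to 947.3 CPM against 344.6 to 405.2 CPM in mutants).

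The 38 members that failed the filter held at most 79 reads over all 6 libraries. Kcna10, Kcnj1, Kcnk15 and Kcnmb3 had 0 reads in every library, which allows up to 3 reads, or 0.172 to 0.189 CPM, in each. These limits cover counting error only. Kcng3, a silent modifier subunit, had 2 reads in each control pool and 11, 5 and 6 reads in the mutant pools. Cacng1, the gamma subunit gene of skeletal muscle, had 0 reads in the control pools and 3, 5 and 1 reads in the mutant pools. Both were chosen after their counts were seen and were not tested.

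Other genes linked to these channels were taken from lists chosen by function. The share called over all genes tested was 7.95%. Of 24 tested genes of further cation channels, edgeR called 1 higher and 2 lower, and DESeq2 called 2 in all. Hcn4, the pacemaker channel gene, rose by 0.69 (SE 0.159, edgeR adjusted p = 0.0321). Unc80, a subunit of the sodium leak channel (-1.03, adjusted p = 0.00766), and Trpv6, an epithelial calcium channel gene (-0.97, 0.028), fell. Of 25 tested partner and anchoring genes, edgeR called 4 and DESeq2 3. By edgeR, Gem, an inhibitor of calcium channel beta subunits (0.65, adjusted p = 0.00282), and Rims1, an active zone scaffold (0.77, 0.0393), were called higher. Rims2, the scaffold that ties calcium channels to secretory granules (-0.76, edgeR adjusted p = 0.00955), and Nedd4l, a ubiquitin ligase of channels (-0.30, 0.0115), were called lower. Rest, the repressor named with the promoter letters above, was not called (0.04), at 95.4 ± 8.77 CPM (SD, n = 3) in controls against 98.2 ± 1.94 CPM in mutants. The median log2 fold changes of both lists were 0.04 and 0.01.

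Exon overlap with genes on the opposite strand was small for the called members, at 3.81% of exon length for Cacna1a and 0.506% for Kcne3. Kcnip4 shared 4.63% with 5730480H06Rik and 2.73% with Gm20700. The other 9 called members had no shared exon bases.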

How the data were processed

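mRNA libraries of 6 pools of embryonic pancreas were sequenced, and the authors deposited whole-number read counts per gene symbol. Genome build mm10 and the tools DESeq2, STAR, cutadapt 1.13 and HTSeq 0.6.1p1 are named in the submitters' processing notes. What each tool did, the annotation and the strand setting: not given in the sources used here. The members and lists were chosen with earlier results of these data known. From the counts, edgeR 4.0.16 in R 4.3.3 kept genes by filterByExpr (minimum count 10), scaled libraries by TMM and tested genotype, without covariates, by the quasi-likelihood F test. Adjusted p-values are Benjamini-Hochberg values over 14687 genes. The SE was obtained as the log2 fold change over the root of the F statistic, with normal 95% intervals. Positions and union exon lengths come from GENCODE M21 (GRCm38, also called mm10), which matched all 131 members, and promoters from RefSeq (GRCm38.p6), which matched 97. Named genes were all called members, the highest in CPM of each family and a fixed set; other members are examples chosen after their values were seen. Some members and list genes are not reported here. Nothing states that pools were separate litters, so p-values measure the spread between these pools. The scripts were tested on simulated counts. The alternatives were other scalings, filters, DESeq2 1.42.0, limma 3.58.1 voom, robust estimation, a replicate block and libraries left out.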

Additional observations from a re-analysis of the deposited data

How the results depend on the processing

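All 12 calls held under the other scalings, filters and tests (DESeq2, limma voom, robust edgeR and the replicate block). With each library left out in turn, calls over all genes ranged from 629 (without control pool 1) to 1421 (without control pool 2), with 648, 767 and 776 when mutant pools 2, 1 and 3 were left out, and over the members from 8 to 17, 1 to 7 higher and 6 to 10 lower. Of the 12 called members, 6 (Kcnk16, Scn3a, Kcnh2, Kcnh6, Kcna2 and Cacna1a) kept the call with each single library left out. Without both libraries low in Xist, 665 genes and 7 members were called, 2 of them higher. Members called higher numbered 9 with the DESeq2 Wald test and 8 with robust edgeR. Equal pool numbers did not deviate together in every pair (correlations 0.138, 0.101 and -0.0497), and correlations of unequal numbers ran from -0.234 to 0.159. With the replicate block 17 members were called, 9 higher. The block added calls for Cacna1c (edgeR adjusted p = 0.0431), Kcnj2 (0.0417), Kcnn4 (0.0483), Kcnc2 (0.0488) and Kcns3 (0.046). Among named genes, reversed signs were seen in 7, none of them called. With single libraries left out, log2 fold changes ranged from -0.17 to 0.068 for Cacna1g, -0.21 to 0.023 for Cacna1h, -0.059 to 0.20 for Cacnb3, -0.30 to 0.15 for Kcnip1, -0.44 to 0.10 for Kcnj5 and -0.076 to 0.17 for Scn2b. Without both libraries low in Xist they were -0.22 for Cacna1g, -0.0025 for Cacna2d2, -0.00096 for Cacnb3 and 0.077 for Kcnj5, and total-count scaling gave -0.0019 for Scn2b. The cause was not tested. At 15.9 to 17.5 reads per CPM, members under about 1 CPM carry large counting error.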
